A study of Mus musculus with 8 samples.

Results

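The scaffold genes of the postsynaptic density examined here were Lrrc7, Dlg2, Dlg3, Dlg4, Dlgap1, Shank1, Shank2, Shank3 and Homer1, 9 of the 32726 genes counted in cultured mouse neurons. They were chosen by name from the families that build the scaffold, and all 9 passed the filter on low counts, which left 16272 genes. Lrrc7 was picked because its level was lower in Nuak1 knockout (KO) than in wild type (WT) libraries. Its genotype difference is therefore a description, has no test and supports nothing else. The other 8 members were tested.

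Poly-A RNA was sequenced to ask which transcripts differ in neurons that lack NUAK1, a kinase of the AMPK-related family, while their axons are still growing. The series held 4 KO libraries (KO1 to KO4) and 4 WT libraries (WT1 to WT4). The study's methods give as many animals per genotype as libraries. KO neurons came from embryos with a constitutive, homozygous deletion of Nuak1, and WT neurons carried both intact alleles. All cultures came from mice on a C57Bl/6JRj background, were grown without serum and were collected at 5 days in vitro. The deletion is present in every cell of the animal, not in neurons alone, and is lethal at birth, which limits the model to neurons taken from embryos. The study describes cortical neurons, but the tissue is given as "cortex or hippocampus" for all 8 libraries. A strain label, which the sources do not explain, reads BJ for KO1 to KO3, BK for KO4, WT2 and WT4, BO for WT1 and BQ for WT3.

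The postsynaptic density is a dense protein lattice beneath the membrane of excitatory synapses. Membrane-associated guanylate kinases of the PSD-95 family (encoded by the Dlg genes) hold glutamate receptors at its outer face, SAPAP proteins (the Dlgap genes) bind them from below, and SHANK and HOMER proteins form the deeper layer that reaches metabotropic receptors and the actin cytoskeleton. Densin-180, the product of Lrrc7, is a scaffold with leucine-rich repeats and a C-terminal PDZ domain, which binds the kinase CaMKII, alpha-actinin and other members of the lattice. In cortical neurons this lattice is assembled as synapses form and mature.

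Members differed in base composition, and the largest variation between libraries followed it. The last 90 coding bases of 5 members, stop codon included, are printed with every G and C in capitals, to show the range from G- and C-rich to A- and T-rich genes. They were read from GENCODE vM1 transcripts (Dlg4-002, Shank1-001, Shank3-001, Lrrc7-202 and Homer1-008) and encode the C-terminal end of each protein.
Dlg4: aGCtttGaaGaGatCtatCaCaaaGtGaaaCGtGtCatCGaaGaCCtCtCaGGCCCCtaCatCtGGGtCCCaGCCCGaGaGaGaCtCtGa
Shank1: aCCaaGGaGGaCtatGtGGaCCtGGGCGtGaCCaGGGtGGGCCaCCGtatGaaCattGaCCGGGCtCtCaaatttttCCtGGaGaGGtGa
Shank3: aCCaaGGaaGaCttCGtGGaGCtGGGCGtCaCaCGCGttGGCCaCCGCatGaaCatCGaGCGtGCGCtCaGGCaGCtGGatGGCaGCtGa
Lrrc7: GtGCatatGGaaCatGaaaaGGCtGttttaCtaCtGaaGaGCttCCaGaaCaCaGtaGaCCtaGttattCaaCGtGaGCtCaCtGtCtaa
Homer1: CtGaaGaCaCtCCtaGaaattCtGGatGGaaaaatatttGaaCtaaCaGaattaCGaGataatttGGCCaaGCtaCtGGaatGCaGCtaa
G and C made up 51.1% of this stretch in Dlg4, 55.6% in Shank1, 62.2% in Shank3, 41.1% in Lrrc7 and 36.7% in Homer1. Over the longest coding transcript of each gene, the share was 62.9% for Shank1, 62.4% for Shank3, 57.9% for Dlg4, 54.97% for Shank2, 52.0% for Dlg3, 50.9% for Dlgap1, 45.5% for Lrrc7, 43.8% for Dlg2 and 36.9% for Homer1.

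The members also differed widely in the length of the locus (positions from RefSeq on GRCm38, the assembly that the authors aligned to). The longest were Dlg2 (ENSMUSG00000052572, chr7:90476188-92449246), Dlgap1 (ENSMUSG00000003279, chr17:69969073-70821413), Lrrc7 (ENSMUSG00000028176, chr3:158067186-158561983) and Shank2 (ENSMUSG00000037541, chr7:143978077-144426043). Homer1 (ENSMUSG00000007617, chr13:93303757-93405129), Shank3 (ENSMUSG00000022623, chr15:89493013-89560261) and Shank1 (ENSMUSG00000038738, chr7:44308916-44360094) were shorter. Dlg3 lies on the X chromosome (ENSMUSG00000000881, chrX:100767411-100818410) and Dlg4, the most compact, on chromosome 11 (ENSMUSG00000020886, chr11:70017203-70045535). All are protein-coding genes, and counts were taken over their exons. Other annotated genes overlap Dlg2 (7 genes), Dlgap1 (5), Shank2 (3), Shank1 (1, 1700008O03Rik) and Shank3 (1, Gm15609), whereas none overlaps Lrrc7, Dlg3, Dlg4 or Homer1. The libraries were made with a stranded kit, but the sources do not say whether the counting used strand, so reads from such overlaps are uncertain.

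Total counts ranged from 31247078 to 67155004 per library, and no library duplicated another. Counts of Nuak1 itself ran from 86 to 102 in KO and from 1612 to 4598 in WT, a log2 difference of −4.89 (SE 0.13, edgeR adjusted p 1.24e-07). KO1 and WT1 stood apart from the other 6 libraries, at −27.6 and −28.4 on the first principal component against 0.073 to 22.6, and results are given with and without them. Lane A held KO1, KO4, WT1 and WT3, and lane B the others. Defining markers of neurons were abundant (summed level 5519 to 6397 CPM, the count scaled by the library total), as were those of glutamatergic cortical neurons (873 to 1114 CPM), whereas summed microglial markers stayed between 1.68 and 22.96 CPM in KO and between 1.78 and 9.40 CPM in WT. Astrocyte markers summed to 546 to 1205 CPM and oligodendrocyte lineage markers to 474 to 568 CPM, so the cultures were not neurons alone. No marker of the 8 cell types examined was at 0 in all libraries, and 0 of those that could be tested passed the adjusted threshold (edgeR). P2ry12, Tmem119 and Itgam of microglia and Cldn5 of endothelial cells did not pass the filter on low counts and were not tested.

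Lrrc7 was lower in the KO libraries. It had 77.8, 74.0, 69.3 and 68.6 CPM in KO1 to KO4, from 2559 to 3614 counts, and 111, 84.6, 87.6 and 89.1 CPM in WT1 to WT4, from 3386 to 5680 counts. The genotypes did not overlap, as for 0.86% of tested genes in this direction. The highest KO library, KO1, lay below the lowest WT library, WT2, by 6.78 CPM. This gap is part of the difference for which the gene was chosen, and with TMM scaling, which adjusts library sizes for composition, it ran from 77.4 to 87.4 CPM. KO libraries averaged 72.4 ± 4.30 CPM and WT libraries 93.2 ± 12.2 CPM (SD, n = 4 per genotype). In the model over all genes, the log2 fold change of KO over WT was −0.40 (SE 0.058), a difference of −24.3%. In bulk RNA, fewer cells of a type and less RNA per cell cannot be told apart.

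Refits that use the same libraries describe the Lrrc7 value further and are no support for it, since the choice of the gene fixes the direction. Lane A alone gave −0.47 and lane B alone −0.34, and it was −0.34 without KO1 and WT1, and −0.35 once the strain label entered the model. Within strain label BK, the only label present in both genotypes, KO4 had 68.6 CPM against 84.6 and 89.1 CPM in WT2 and WT4. WT1 held the highest Lrrc7 level of all libraries, and leaving it out gave −0.35. Over all 22 alternatives the log2 fold change lay between −0.47 and −0.34. The SE depended more on the model, at 0.12 without a surrogate variable, 0.11 with lane as a term, 0.16 with the strain label and 0.26 on lane A alone, against 0.058 above.

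**Figure D1:**
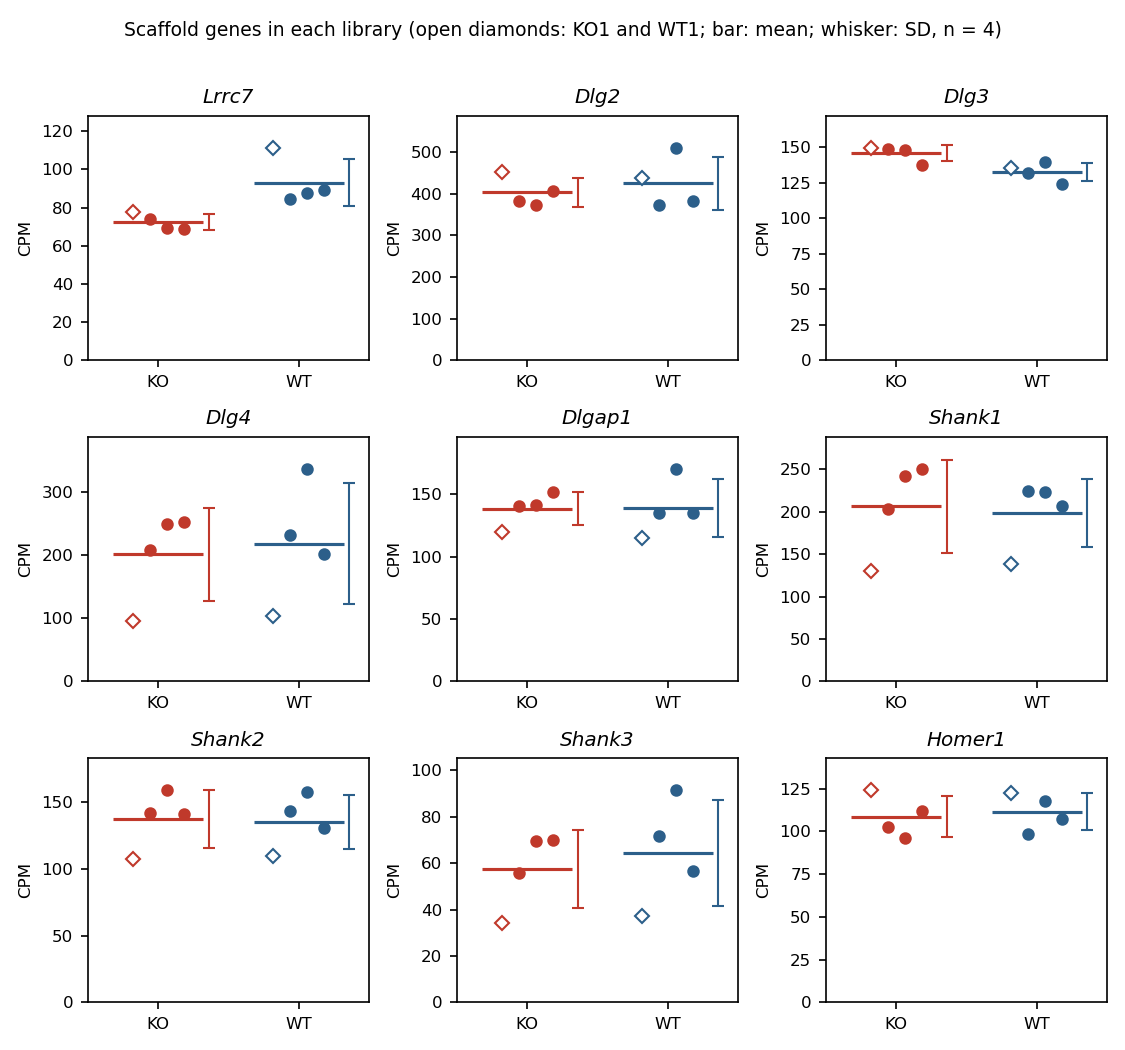
Level of each scaffold gene in every library, in CPM on linear axes that start at 0, with the mean (bar) and SD (whisker, n = 4) of each genotype; open diamonds mark KO1 and WT1. Lrrc7 has no overlap between genotypes (68.6 to 77.8 against 84.6 to 111 CPM), as for 0.86% of tested genes with KO below WT. The other 8 genes overlap, and Dlg4, Shank1 and Shank3 are lowest in KO1 and WT1.

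None of the other 8 scaffold genes differed between genotypes beyond the spread of the libraries. By edgeR, 0 of the 8 passed the adjusted threshold, against 8 of 16272 tested genes (0.0492%), and DESeq2 and limma-voom also gave 0. None of the 8 had an unadjusted p under 0.05, against 1728 of 16272 tested genes. At the study's own threshold (absolute log2 fold change above 0.25 with an unadjusted p under 0.05) 0 of 8 were lower in KO, where the background was 3.53%, and 0 were higher, where it was 2.22%. The CPM ranges of the genotypes overlapped for all 8, while among tested genes 0.86% had every KO library below every WT library and 1.54% the reverse. Beside these backgrounds, counts of 0 among 8 genes do not set the scaffold genes apart. Their median log2 fold change was −0.052, with 2 above and 6 below 0, beside a median of 0.015 over all tested genes, of which 53.8% were above 0.

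**Figure D2:**
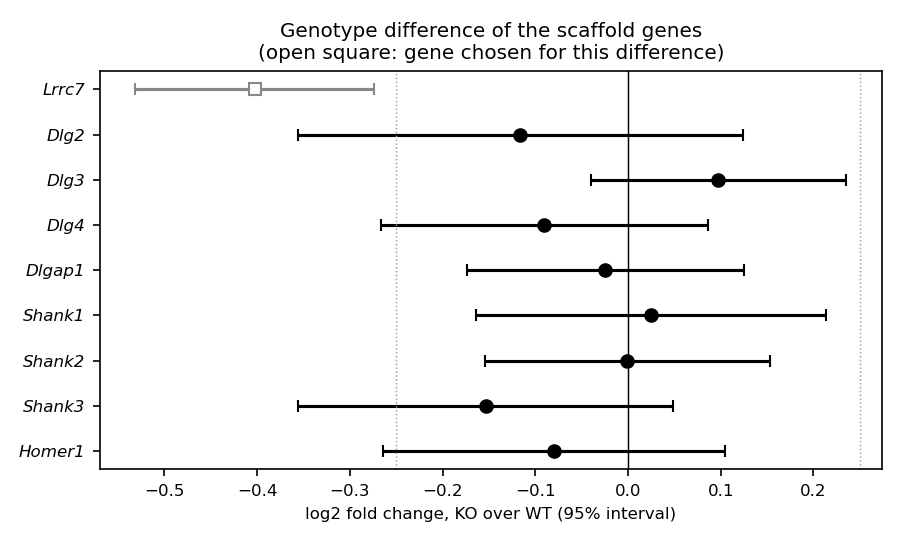
Log2 fold change of KO over WT for the 9 scaffold genes with 95% intervals from the edgeR model; dotted lines mark 0.25 on either side of 0. The interval spans 0 for each of the 8 tested genes. The open grey square is Lrrc7 (−0.40), the gene chosen for this difference, so its interval is a description and no test.

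Among the PSD-95 family, Dlg4 encodes PSD-95, which anchors NMDA receptors and, through auxiliary subunits, AMPA receptors. It had 95.4, 208, 250.04 and 253 CPM in KO1 to KO4 and 103, 233, 337 and 202 CPM in WT1 to WT4. KO1 and WT1 were far below the other libraries in both genotypes, and the genotypes overlapped. KO libraries averaged 202 ± 73.8 CPM and WT libraries 219 ± 96.4 CPM (SD, n = 4 per genotype), and KO over WT was −0.09 on the log2 scale (SE 0.079, 95% interval −0.27 to 0.086, edgeR adjusted p 0.710). Lane A alone gave −0.34, lane B alone 0.0053, and the 6 libraries other than KO1 and WT1 gave −0.15.

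Dlg2 encodes PSD-93, a close relative of PSD-95. It had 452, 384, 373 and 406 CPM in the KO libraries and 438, 372, 510 and 382 CPM in the WT libraries. WT3 was the highest, and the range of the KO libraries lay inside that of the WT libraries. The means were 404 ± 35.02 and 426 ± 63.4 CPM in KO and WT, and KO over WT was −0.12 on the log2 scale (SE 0.11, 95% interval −0.36 to 0.12, edgeR adjusted p 0.724), and without WT3 it was 0.0035.

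Dlg3 encodes SAP102, the family member that predominates at young synapses and whose loss in people causes X-linked intellectual disability. The KO libraries had 149.6, 149, 148 and 137 CPM and the WT libraries 136, 132, 139 and 125 CPM. Apart from KO4 the KO libraries lay above every WT library, but KO4 fell within the WT range. KO libraries averaged 146 ± 5.78 CPM and WT libraries 133 ± 6.37 CPM, and KO over WT was 0.10 on the log2 scale (SE 0.062, 95% interval −0.04 to 0.24, edgeR adjusted p 0.591). Of the 8 tested members, only Dlg3 kept its direction in all 22 alternatives (0.041 to 0.15, above 0 in each), and it passed the threshold in none. Since Dlg3 is X-linked, Xist and the Y-linked gene Ddx3y were read beside it. Xist was near 0 in KO3 (1.82 CPM) and WT4 (2.76 CPM), where Ddx3y had 80.4 and 85.8 CPM, and each genotype thus held 1 such library. In these libraries Dlg3 had 148 and 125 CPM, the latter being the lowest of all.

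Dlgap1 encodes SAPAP1 (GKAP), the adaptor that joins PSD-95 to SHANK. It had 119.8, 140.2, 142 and 152 CPM in KO1 to KO4 and 115, 135, 170.3 and 135 CPM in WT1 to WT4. KO1 and WT1 were again the lowest of their genotype. The means of 138 ± 13.4 and 139 ± 22.9 CPM gave a log2 difference of −0.024 (SE 0.067, 95% interval −0.17 to 0.13, edgeR adjusted p 0.922).

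The 3 SHANK genes encode the large proteins that tie SAPAP to HOMER and, with their ankyrin and SAM domains, build the deep layer. Shank1 had 129.9, 203, 242 and 251 CPM in KO1 to KO4 and 139, 225, 223 and 207 CPM in WT1 to WT4. Shank2 had 108, 142, 159 and 141 CPM in KO and 109.8, 144, 158 and 130.4 CPM in WT. Shank3, whose loss causes Phelan-McDermid syndrome in people, had 34.3, 55.8, 69.8 and 70.04 CPM in KO and 37.3, 71.7, 91.6 and 56.8 CPM in WT. In each of the 3 genes KO1 and WT1 were the lowest libraries of all, and the genotypes overlapped.

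For Shank1, KO libraries averaged 206 ± 55.1 CPM and WT libraries 198.5 ± 40.5 CPM (SD, n = 4 per genotype), a log2 difference of 0.025 (SE 0.084, 95% interval −0.16 to 0.21, edgeR adjusted p 0.937). Shank2 averaged 138 ± 21.6 CPM in KO and 135 ± 20.4 CPM in WT libraries, and its log2 fold change of −0.00076 was the smallest of the members (SE 0.069, 95% interval −0.15 to 0.15, edgeR adjusted p 0.997). Shank3 averaged 57.45 ± 16.8 CPM in KO and 64.3 ± 23.0 CPM in WT libraries. With −0.15 it had the largest log2 fold change of the 8 tested members, still within the spread between libraries (SE 0.091, 95% interval −0.36 to 0.049, edgeR adjusted p 0.568). For Shank3, lane A alone gave −0.31, lane B alone −0.11, and the 6 libraries other than KO1 and WT1 gave −0.20. The Shank3 value was −0.061 without WT1 and turned to 0.10 once the strain label entered the model.

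Homer1 encodes the adaptor that couples group I metabotropic glutamate receptors to SHANK and to calcium stores. A short product of the same gene, Homer1a, is induced by activity, and the counts per gene do not separate the products. It had 124, 103, 96.0 and 112 CPM in KO1 to KO4 and 123, 98.4, 118 and 107 CPM in WT1 to WT4. In contrast to the SHANK genes, KO1 and WT1 had the highest levels of their genotype. The means of 109 ± 12.2 CPM in KO and 111 ± 10.8 CPM in WT libraries gave a log2 difference of −0.08 (SE 0.083, 95% interval −0.26 to 0.105, edgeR adjusted p 0.760).

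The intervals of the 8 tested members together spanned −0.36 to 0.24 on the log2 scale in the model with 1 surrogate variable. Without that variable the SE was larger, at 0.38 for Dlg4, 0.30 for Shank3, 0.22 for Shank1 and 0.088 for Dlg3, so the intervals hold for this model only. An interval that spans 0 does not show that a gene is equal in both genotypes.

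For Dlg4 and the SHANK genes, KO1 and WT1 differed from the other libraries far more than the genotypes did from each other. The fold between the highest and the lowest library was 3.53 for Dlg4, 2.67 for Shank3 and 1.93 for Shank1, but only 1.20 for Dlg3 and 1.295 for Homer1. The mean of Dlg4 was 99.4 CPM in KO1 and WT1 and 247 CPM in the other 6 libraries, which ranged from 202 to 337 CPM, a ratio of 0.402. The ratio was 0.517 for Shank3, 0.597 for Shank1, 0.746 for Shank2 and 0.807 for Dlgap1. It was above 1 for Dlg3 (1.03), Dlg2 (1.1), Homer1 (1.17) and Lrrc7 (1.20). Genes of the same layer thus went in different directions, PSD-95 and PSD-93 among them. The pair holds 1 library of each genotype, so this axis crosses the comparison of KO with WT.

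The order of the members along this axis was close to their order in base composition. Across the 9 members, Spearman's correlation between transcript GC content and the log2 ratio of the pair over the other libraries was −0.867. Across 13636 tested genes with a coding transcript (83.8% of those tested), it was −0.80. These points share the same 8 libraries, and genes are not independent replicates, so both values are descriptions. Genes with at most 42% GC had a median log2 ratio of 0.35, those from 42 to 46% 0.25, those from 46 to 50% 0.098, those from 50 to 54% −0.20, those from 54 to 58% −0.59, and those above 58% −0.96. Shank3 (−0.95) lay at the median of its range, Dlg4 (−1.32) below that of its own, and Lrrc7 (0.26) next to that of genes from 42 to 46%. The genotype difference followed base composition less closely, with a Spearman correlation of 0.189 across tested genes. The part of base composition, library preparation or culture in this pattern was not tested.

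**Figure D3:**
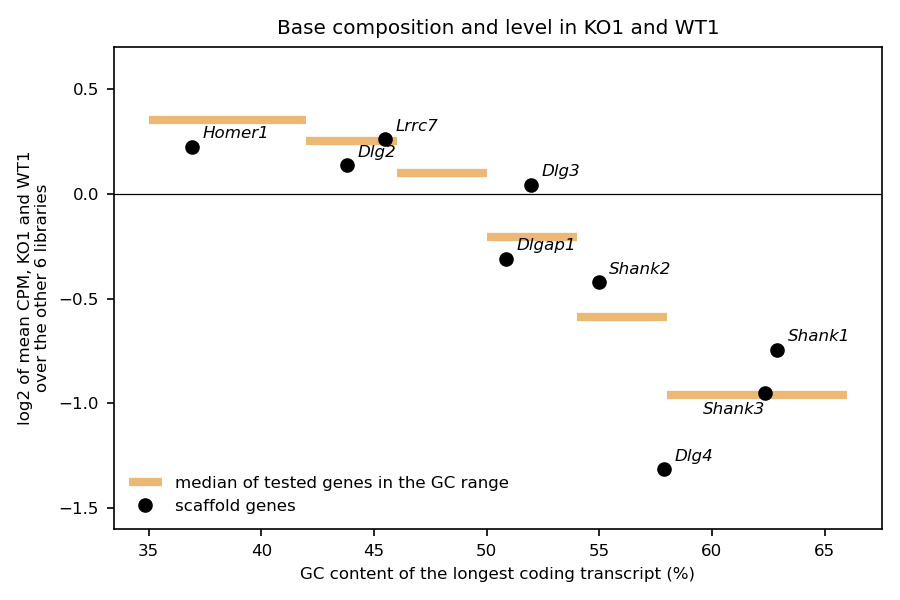
Log2 ratio of mean CPM in KO1 and WT1 over the other 6 libraries against the GC content (%) of the longest coding transcript, for the 9 scaffold genes (points) and as medians of tested genes in 6 GC ranges (bars, the end ranges drawn over part of their width). Members run from Homer1 (36.9% GC, 0.23) to Shank1 (62.9% GC, −0.74), with Dlg4 lowest at −1.32.

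Members of the lattice could also be compared with each other, once counts were divided by the length of the gene's exons (CPM per kb of exon, exon lengths from GENCODE vM1). Dlg4 had the highest mean level over the 8 libraries, 45.2 CPM per kb (range 20.5 to 72.4), followed by Dlg2 at 37.7 (33.9 to 46.4). Shank1, at 24.4 (15.7 to 30.2), and Dlg3, at 23.9 (21.3 to 25.6), formed the next level. Shank2 (12.8, range 10.1 to 14.9), Lrrc7 (11.1, 9.19 to 14.9), Homer1 (9.70, 8.47 to 10.96), Dlgap1 (8.16, 6.78 to 10.02) and Shank3 (6.85, 3.85 to 10.3) were lower. Between neighbours in this order, the ranges were separate only for Dlg2 above Shank1 and for Dlg3 above Shank2, and the other neighbours overlapped. Dlg4 exceeded Dlg2 in 6 of 8 libraries, the exceptions being KO1 and WT1. Per kb of exon, Lrrc7 averaged 9.71 ± 0.576 CPM in KO and 12.5 ± 1.64 CPM in WT libraries (SD, n = 4 per genotype), and it lay below Homer1 in KO1 and KO4 and above it in the other 6.

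The order depended on the length used. Alternatives chosen after seeing the data divided the counts by the coding length or by the longest coding transcript. Per kb of coding sequence, Dlg2 (159) and Homer1 (98.9) came before Dlg4 (91.3), and Lrrc7 (17.9) and Shank3 (11.2) were last. Per kb of transcript, Dlg2 (78.6) and Dlg4 (60.8) led, and Lrrc7 (12.8) and Shank3 (8.27) were again last. Lrrc7 thus belonged to the less abundant members by every length, and Shank3 was the lowest by each.

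**Figure D4:**
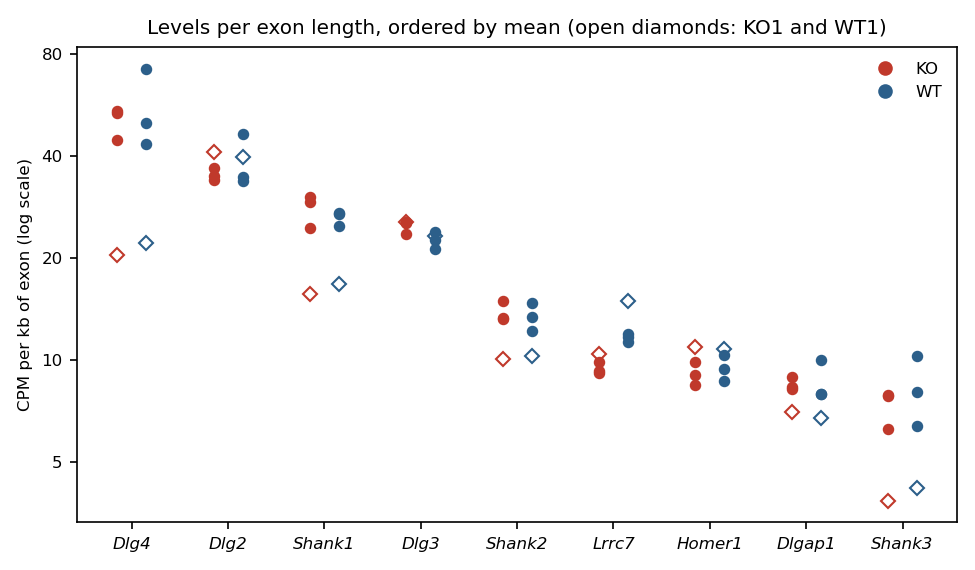
Level of each scaffold gene per exon length in every library (CPM per kb of exon, log scale), ordered by the mean over the 8 libraries; open diamonds mark KO1 and WT1. Dlg4 spans 20.5 to 72.4, the widest range, and Dlg3 stays between 21.3 and 25.6.

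Other genes of the postsynaptic density were examined as 62 genes in 5 groups chosen by function, all of them tested. By edgeR, 0 of 62 passed the adjusted threshold, where the background was 0.0492%. An unadjusted p under 0.05 was found for 5, 4 lower in KO (Kalrn, Ppp1r9a, Homer2 and Tanc2) and 1 higher (Dynll2), beside 936 lower and 792 higher among the 16272 tested genes, so these counts do not set the group apart. Without WT3 there were 12 such genes, beside 2557 of 16425 tested genes in that fit. DESeq2 called 1 gene, Kalrn, and limma-voom none. At the study's threshold 1 gene was lower (Kalrn) and 1 higher (Dynll2), beside backgrounds of 3.53% and 2.22% of tested genes. The lower count was 2 without KO1, KO4, WT3 or WT4 and 0 with lane or the strain label in the model. The higher count was 0 without KO1, KO4 or WT2, and 2 with 2 surrogate variables or with the strain label in the model. CPM ranges overlapped between genotypes for all 62, beside backgrounds of 0.86% (KO below WT) and 1.54% (KO above WT) without overlap. Their median log2 fold change was 0.0036, with 34 above and 28 below 0, close to the 0.015 of all tested genes.

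Paralogues of the members were the first group, with a median log2 fold change of 0.0012 and 5 of 9 above 0. For the PSD-95, SAPAP and HOMER families, values were −0.074 for Dlg1 (SAP97), −0.20 for Dlgap2, −0.079 for Dlgap3, 0.11 for Dlgap4, −0.19 for Homer2 and 0.11 for Homer3. Densin-180 belongs to the LAP family of leucine-rich repeat and PDZ proteins, and its relatives had 0.073 (Erbin), 0.054 (Scrib) and 0.0012 (Lrrc1). Over the 22 alternatives, directions turned for Dlgap3 (−0.53 to 0.31), Homer3 (−0.029 to 0.28), Erbin (−0.30 to 0.14), Scrib (−0.12 to 0.21) and Lrrc1 (−0.18 to 0.047, below 0 in 17). None of these 9 passed the adjusted threshold, the lowest adjusted p being 0.411 (Homer2, edgeR). Scrib, like Dlg4, was low in KO1 and WT1, with 27.6 and 25.1 CPM against 74.6 to 103 CPM in the other libraries.

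Binding partners of densin-180 had a median of 0.057 with 4 of 7 above 0. The 3 with the smallest p were Camk2a, the alpha subunit of CaMKII (0.16, SE 0.098), Ctnnd2, the neuronal delta-catenin (0.074, SE 0.067), and Actn4, an alpha-actinin (0.061, SE 0.070), and the lowest adjusted p of the group was 0.580 (edgeR). Adaptors and other scaffolds had a median of 0.0039 with 13 of 23 above 0. Dynll2, a dynein light chain that also binds SAPAP proteins, averaged 509 ± 56.9 CPM in KO and 402 ± 58.4 CPM in WT libraries, a log2 difference of 0.30 (SE 0.10, edgeR adjusted p 0.369). In the same group Tanc2, an ankyrin repeat scaffold, had −0.18 (SE 0.069) and Mpp2, a membrane-associated guanylate kinase, 0.094 (SE 0.055). Prr7, named after its values were seen, had a larger fold (−0.34, SE 0.30) at under 2 CPM in every library, with an unadjusted p of 0.295 (edgeR).

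Enzymes and their regulators had a median of 0.0014 with 7 of 13 above 0. Kalrn encodes kalirin, an exchange factor that shapes spines, and Trio is its paralogue. Kalrn had 122, 139.5, 150.2 and 166 CPM in KO1 to KO4 and 146, 177, 195 and 176 CPM in WT1 to WT4. KO1 and WT1 were the lowest of their genotype, and the upper KO libraries overlapped the lowest WT library. KO over WT was −0.29 on the log2 scale (SE 0.063, edgeR adjusted p 0.235), and of 22 alternatives only DESeq2 took it past the threshold, with an adjusted p of 0.015. Trio had −0.14 (SE 0.067) and Camk2g, the gamma subunit of CaMKII, 0.105 (SE 0.053). Genes that link the spine to actin had a median of 0.0017 with 5 of 10 above 0. Ppp1r9a, which encodes neurabin, had −0.24 (SE 0.065, edgeR adjusted p 0.314), Cttn, which encodes cortactin, 0.093 (SE 0.053), and Cttnbp2, which encodes a cortactin-binding protein, −0.053 (SE 0.080).

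**Figure D5:**
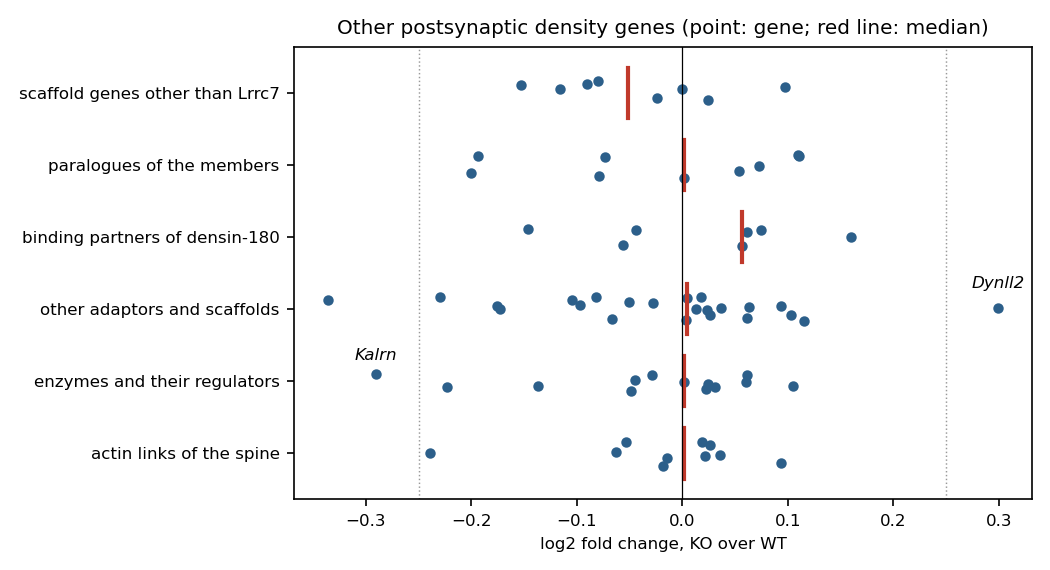
Log2 fold change of KO over WT for the 8 tested scaffold genes and 62 other postsynaptic density genes in 5 groups (point: gene, red line: median, dotted lines: 0.25 on either side of 0); 0 of these genes passed the adjusted threshold in edgeR. Group medians lie between −0.052 and 0.057, and the labelled genes are those past the study's threshold, Kalrn (−0.29) and Dynll2 (0.30); the unlabelled gene beyond the left line is Prr7 (−0.34).

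Genes were finally ranked by how closely their level followed that of Lrrc7 from library to library within a genotype. Likeness was Pearson's r of log2 CPM centred within each genotype, over 12779 genes, taken as the smaller of the value over 8 libraries and the value over the 6 without KO1 and WT1. The closest were Nhlrc2 (0.988 over 8 and 0.998 over 6), Gabrq, a GABA-A receptor subunit (0.978 and 0.970), C330007P06Rik (0.962 and 0.983), Kcnrg (0.954 and 0.98) and Zfp942 (0.954 and 0.978). Gabrq and Kcnrg were rare, at 1.26 to 3.55 CPM. With so few libraries and so many genes, values this high are a description and have no test. Nhlrc2, which encodes a protein with NHL repeats, had 12.9, 12.4, 11.8 and 11.7 CPM in KO and 16.4, 14.04, 14.5 and 14.6 CPM in WT. Its genotypes did not overlap, as for 0.86% of tested genes in this direction, and KO over WT was −0.32 on the log2 scale (SE 0.073, edgeR adjusted p 0.247). The genotypes overlapped for the other 4 genes, with log2 differences of −0.34 for Gabrq, −0.16 for Kcnrg, 0.105 for C330007P06Rik and 0.037 for Zfp942.

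No other scaffold gene was among the closest to Lrrc7. Over 8 libraries r with Lrrc7 was 0.645 for Homer1, 0.342 for Dlg3 and 0.312 for Dlg2, and it was negative for Dlgap1 (−0.743), Shank2 (−0.805), Dlg4 (−0.856), Shank3 (−0.864) and Shank1 (−0.868). Without KO1 and WT1 these values moved to 0.165, 0.198 and 0.080, and to −0.076, −0.313, −0.356, −0.542 and −0.940. Most of the negative values therefore rested on the pair, with the exception of Shank1. Dlg4 and Shank3 followed each other with and without the pair (0.991 and 0.972), and Dlg2 and Dlgap1 did so only without it (0.206 and 0.988). Each of these genes had its highest level in WT3, and r without WT3 was not computed.

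Levels of cell type markers were read beside the Lrrc7 difference. Summed glutamatergic markers ran from 879 to 1114 CPM in KO libraries and from 873 to 1098 CPM in WT libraries, and 3 of 8 had a log2 fold change above 0. Slc17a7, named after its values were seen, encodes the vesicular glutamate transporter of cortical neurons and had −0.32 (SE 0.11, edgeR adjusted p 0.390), past the study's threshold. Top2a, a gene of dividing cells named in the same way, was past it in the other direction, at 0.47 (SE 0.19, edgeR adjusted p 0.438), and 4 of the 6 markers of its list had a log2 fold change above 0. The GABAergic sum ran from 212 to 349.6 CPM and from 192 to 318 CPM. Astrocyte markers, all 6 with a log2 fold change above 0, summed to 585 to 1205 CPM in KO libraries and 546 to 948 CPM in WT libraries, and markers of progenitors and dividing cells to 196 to 304 CPM and 114 to 244 CPM. The largest log2 differences among markers, also named after their values were seen, were 1.94 (SE 1.12) for the astrocyte gene Gfap, whose level ranged over 7.12 to 235 CPM among KO and 9.90 to 56.7 CPM among WT libraries, and 1.46, 1.29 and 1.151 for the microglial genes Cx3cr1, C1qa and Csf1r, with edgeR adjusted p from 0.562 to 0.607. The sum for the oligodendrocyte lineage was 484 to 568 CPM in KO libraries and 474 to 551 CPM in WT libraries, and that for endothelial cells and fibroblasts 14.4 to 35.95 CPM and 8.52 to 47.6 CPM. The genotypes overlapped for each of these sums, and their part in the Lrrc7 difference was not tested.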

How the data were processed

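Raw counts per Ensembl gene were deposited as made by the authors, from poly-A libraries of 4 KO and 4 WT cultures, and the authors did not pool replicates. Per the study's methods, the authors trimmed reads with cutadapt 1.10, discarded ribosomal reads, aligned the rest to mm10 with STAR 2.5.3a and counted uniquely aligned reads with HTSeq 0.6.1p1 in union mode. Reads shared by near-identical genes or by overlapping genes are lost in this way, which can lower their counts. Read length is given differently in the labels and the methods.

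All 8 count columns matched a sample by label. Of 32726 identifiers, 23260 matched a symbol, the 9 members among them. The test was run in edgeR 4.0.16 under R 4.3.3, with filterByExpr by genotype, TMM scaling, 1 surrogate variable (svaseq, sva 3.50.0), a robust quasi-likelihood F test, and Benjamini-Hochberg adjustment over 16272 genes at 0.05. The SE is the absolute log2 fold change over the square root of F. CPM values use library totals, and r used log2 CPM with an offset of 0.5. Alternatives changed the scaling, filter, covariates, tool (DESeq2 1.42.0, limma 3.58.1) or libraries. The fitting code was tested on simulated data.

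Members and lists were chosen with earlier results of these data known. Named genes were the members, Nuak1, Xist, Ddx3y, all paralogues, the 3 genes of smallest p in each other list and the 5 most like Lrrc7; others are marked. The methods give as many animals per genotype as libraries, and intervals cover the spread between these libraries that the surrogate variable leaves. No position was converted between assemblies: GENCODE vM1 gave lengths, base composition and coding sequence, RefSeq the positions. The authors' hypothesis weighting and promoter sequences were not used here.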

Additional observations from a re-analysis of the deposited data

Results flagged for a closer look

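Dixon's ratio (distance of an extreme library from its neighbour over the full range, 95% critical value) was computed for the CPM of each scaffold gene in each genotype. It was exceeded in 2 of 18 cases, where chance gives 0.9. Lrrc7 had 111 CPM in WT1, the highest of the WT libraries with WT4 next (89.1 CPM), although this gap only just exceeded the critical value. WT1 is also 1 of the 2 libraries that stand apart on the first principal component, and KO1, the other, had the highest Lrrc7 level of the KO libraries (77.8 CPM). Without WT1 the log2 fold change of Lrrc7 was −0.35, and without both it was −0.34. Dlg3 had 137 CPM in KO4, the lowest of the KO libraries, against 148 to 149.6 CPM in the other 3. KO4 is the KO library with strain label BK, the others being BJ, and the log2 fold change of Dlg3 was 0.11 without KO4. The cause of either value was not tested.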

How the results depend on the processing

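Across 22 alternatives the log2 fold change of Dlg3 stayed above 0, and 0 of the 8 tested members passed the adjusted threshold or the study's in any of them. The lowest adjusted p of a tested member was 0.228 (Shank3 without WT4, edgeR). The count of tested genes past the adjusted threshold, 8, became 4 without a surrogate variable, 4 with 2 surrogate variables, 4 with lane as a term, 3 without KO1 and WT1, 1 with the strain label as a covariate, 45 without a filter, 188 with DESeq2, 0 on lane A (96 genes with an unadjusted p under 0.05) and 99 on lane B. Leaving out single libraries gave 3 to 91 genes, 91 without WT3. Genes with an unadjusted p under 0.05, 1728, became 410 without a surrogate variable, 478 with lane as a term and 310 with the strain label. They became 902 without WT1 and 2557 without WT3. Of the other postsynaptic density genes, 1 passed with DESeq2, Kalrn, and the number with an unadjusted p under 0.05, 5, was 1 with lane as a term, 0 on lane A and 12 without WT3. At the study's threshold, 2 higher and 2 lower were found on lane B and 0 in either direction on lane A. Replicate numbers did not pair the libraries: r between same-numbered KO and WT deviations was 0.80 for number 1, 0.012, 0.249 and 0.0023 for the others, and 3 of 4 KO libraries correlated better with another number. With a replicate block 3 genes passed, and no call of a member or listed gene moved.

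Directions turned in at least 1 alternative for 7 of the 8 tested members, all but Dlg3. With 2 surrogate variables Dlg2 had 0.013, Dlgap1 0.041 and Homer1 0.0044. With the strain label Dlg2 had 0.092, Dlg4 0.20, Dlgap1 0.15, Shank2 0.027, Shank3 0.10 and Homer1 0.11. Only KO4, WT2 and WT4 share a label across genotypes there. With library totals alone Dlgap1 had 0.0050 and Shank2 0.029. On lane B Dlg4 had 0.0053, Shank1 −0.024 and Shank2 0.069, and without KO1 and WT1 Shank2 had 0.0016. Leaving out single libraries gave −0.18 to 0.0035 for Dlg2, −0.15 to 0.034 for Dlg4, −0.057 to 0.032 for Dlgap1, −0.029 to 0.12 for Shank1, −0.041 to 0.054 for Shank2 and, without a turn, −0.14 to −0.022 for Homer1 (−0.022 without WT3) and −0.23 to −0.061 for Shank3 (−0.061 without WT1). The cause was not tested. Lane A and lane B alone each hold 2 libraries per genotype. The alternative that takes coding length from RefSeq proteins was not run, since no protein table was used here.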
